A study of Arabidopsis thaliana with 16 samples.

Results

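The HSP90 family of Arabidopsis thaliana was followed through a heat treatment of fust1 mutant and Col-0 wild-type seedlings. It was taken as the 7 loci numbered HSP90.1 to HSP90.7, of 27628 genes in the deposited tables. They are AT5G52640 (HSP90.1), AT5G56030 (HSP90.2), AT5G56010 (HSP90.3) and AT5G56000 (HSP90.4), whose proteins work in the cytosol, AT2G04030 (HSP90.5, also CR88) of the plastid, AT3G07770 (HSP90.6) of the mitochondrion and AT4G24190 (HSP90.7, also SHD) of the endoplasmic reticulum (ER). Membership rested on the gene names and not on any measured value, though it was set with earlier results of these data known. The study grew seedlings of both genotypes to an age of 10 days and held them at 37 °C as a heat shock or at 22 °C. It sequenced poly(A) RNA (RNA-seq) and the RNA stretches that ribosomes shield from a nuclease (Ribo-seq, whose reads are called footprints). The 8 groups, of 2 biological replicates each, were fust1 at 37 °C, fust1 at 22 °C, Col-0 at 37 °C and Col-0 at 22 °C, in each assay, so 16 libraries in all. The kind of fust1 allele, the number of lines and the length of the heat are not given in the sources used here, and whole seedlings mix all organs. The FUST1 gene itself was not analysed here.

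HSP90 proteins are ATP-driven chaperones that act late in folding, as dimers that clamp onto nearly folded clients such as receptors, kinases and transcription factors. Co-chaperones choose the client and set the pace of the ATP cycle. In plants the cytosolic forms hold heat shock factors in check before stress, buffer genetic variation and stabilise resistance proteins, and HSP90.1 is the classical heat-inducible form. The plastid form takes part in protein import and chloroplast development, and the ER form folds receptors such as the CLAVATA proteins that control meristem size.

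RNA-seq libraries held 9402134 to 12737375 counts, and Ribo-seq libraries 6175906 to 13968790, the smallest being those of Col-0 at 37 °C. All 7 genes passed the filter on low counts in both assays. Levels are given as CPM, counts scaled to a common library size, after adjustment by TMM, a scaling that sets the typical gene to no change. The scaling differed with heat, since footprint TMM factors were 0.489 to 0.614 at 37 °C, against 1.76 to 1.96 at 22 °C. With library totals as the scale, the median footprint change of all genes with heat was -1.80 in fust1 and -2.0 in Col-0 on the log2 scale, where it was -0.13 and -0.21 with TMM. For RNA these medians were -1.04 and -1.13 with totals, and -0.12 and -0.10 with TMM. A log2 change below is therefore a change relative to the typical gene, and the share of the library is given beside it where the direction differs. Summed CPM of 5 root markers was 4.78 to 9.85 in RNA at 37 °C, against 35.7 to 42.7 at 22 °C, and 2 of the 5 were called lower in each genotype. In a library 0 to 2 of these markers had no count. In footprints the sum was 9.46 to 13.1 at 37 °C, against 28.7 to 33.8 at 22 °C, with 2 of the 5 called higher and 3 lower in fust1, and 1 and 3 in Col-0. The summed RNA of 4 shoot markers was 17399 to 30647 CPM at 37 °C, against 15141 to 23838 CPM at 22 °C, and these ranges overlapped. The summed footprints of the 4 shoot markers were 1721 to 2143 CPM at 37 °C, against 3801 to 5384 CPM at 22 °C. Their part in the heat results was not tested, and in a whole seedling fewer cells of a type and less RNA per cell cannot be told apart.

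The family took 2.88 ± 0.534% of the RNA counts of a library in fust1 at 37 °C, against 0.130 ± 0.0127% in fust1 at 22 °C (mean ± SD, n = 2). In Col-0 it took 3.06 ± 0.284% at 37 °C, against 0.0919 ± 0.0105% at 22 °C. Of the footprints it took 6.48 ± 0.0527% in fust1 at 37 °C, against 0.269 ± 0.0164% at 22 °C. The Col-0 shares of footprints were 6.38 ± 0.469% at 37 °C and 0.194 ± 0.0152% at 22 °C. In both assays the heated libraries lay far above the unheated ones, and at 37 °C the libraries of fust1 and Col-0 overlapped. At 22 °C both fust1 libraries lay above both Col-0 libraries in each assay. No p is given for these shares, as permuting 2 and 2 libraries exactly reaches no p under 0.333.

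**Figure D1:**
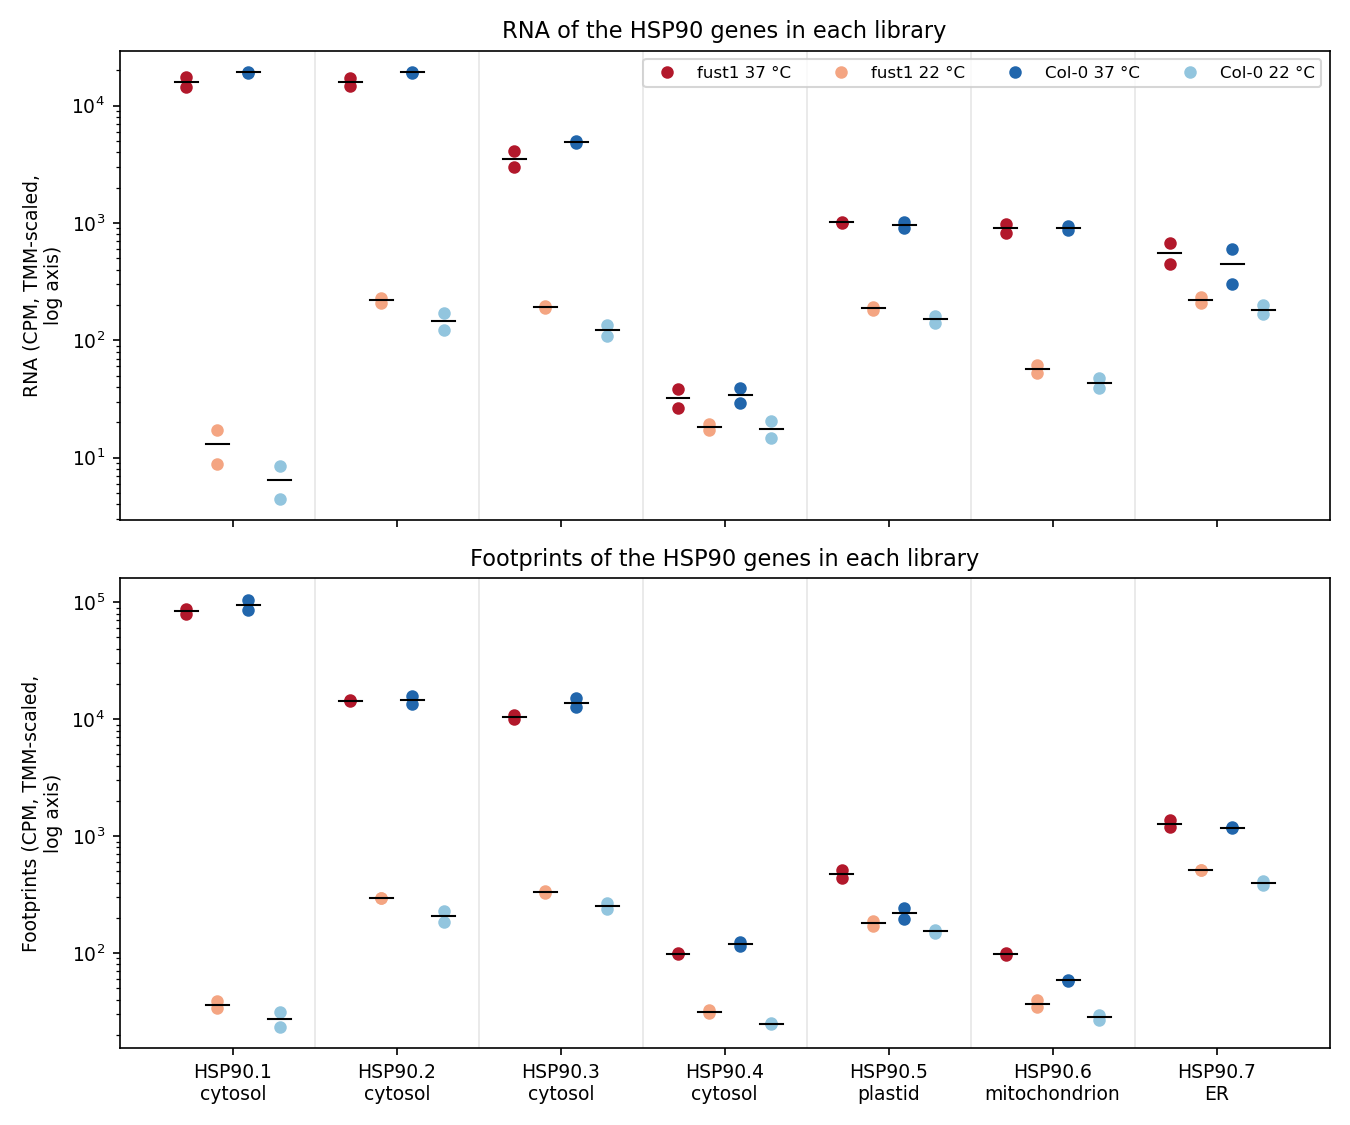
Levels of the 7 HSP90 genes in each library, for RNA (top) and footprints (bottom), in TMM-scaled CPM on a log axis; points are libraries, short black lines are means of 2, and colours are the 4 genotype and temperature groups. HSP90.1 spans the widest range, HSP90.4 the narrowest of the cytosolic forms, and the footprints of HSP90.5 and HSP90.6 are higher in heated fust1 than in heated Col-0.

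Among the cytosolic genes HSP90.1, the form that heat switches on, changed the most. HSP90.1 had 17558 and 14373 CPM of RNA in fust1 at 37 °C, against 17.4 and 8.87 CPM in fust1 at 22 °C. In Col-0 it had 19163 and 19079.5 CPM at 37 °C, against 8.51 and 4.45 CPM at 22 °C. The heated and unheated libraries were far apart in both genotypes. On the TMM scale the heated fust1 libraries were both below the heated Col-0 ones, and as shares of the library they overlapped. On the log2 scale its RNA changed by 10.25 ± 0.53 in fust1 (edgeR adjusted p = 1.17e-07) and 11.54 ± 0.56 in Col-0 (edgeR adjusted p = 5.79e-08). HSP90.1 had 87424 and 79388 CPM of footprints in fust1 at 37 °C, against 34.1 and 38.6 CPM in fust1 at 22 °C. In Col-0 it had 104796 and 85950.4 CPM at 37 °C, against 31.2 and 23.5 CPM at 22 °C. The footprint groups did not overlap between temperatures. Footprints changed by 11.16 ± 0.27 in fust1 (edgeR adjusted p = 3.99e-23) and 11.77 ± 0.28 in Col-0 (edgeR adjusted p = 1.75e-23). HSP90.1 alone held 4.92 and 4.87% of all footprints in the heated fust1 libraries, and 5.12 and 4.58% in the heated Col-0 libraries.

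HSP90.2, a constitutive cytosolic form, was present at 22 °C and rose with heat. HSP90.2 had 17009 and 14697 CPM of RNA in fust1 at 37 °C, against 207 and 231 CPM in fust1 at 22 °C. In Col-0 it had 19017 and 19268 CPM at 37 °C, against 171 and 123 CPM at 22 °C. Heated and unheated libraries were far apart in both genotypes, and both unheated fust1 libraries lay above both unheated Col-0 libraries. The RNA of HSP90.2 changed by 6.18 ± 0.33 in fust1 (edgeR adjusted p = 1.54e-07) and 7.03 ± 0.35 in Col-0 (edgeR adjusted p = 6.61e-08). HSP90.2 had 14316 and 14575 CPM of footprints in fust1 at 37 °C, against 293 and 297 CPM in fust1 at 22 °C. In Col-0 it had 15935 and 13449 CPM at 37 °C, against 184 and 229 CPM at 22 °C. The heated genotypes overlapped, and the unheated ones did not. Its footprints changed by 5.61 ± 0.19 in fust1 (edgeR adjusted p = 5.26e-20) and 6.15 ± 0.20 in Col-0 (edgeR adjusted p = 1.05e-20).

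HSP90.3, a near copy of HSP90.2 whose reads may not be cleanly told from it, had smaller RNA changes than HSP90.2 in both genotypes, a difference that was not tested. HSP90.3 had 4078 and 2999 CPM of RNA in fust1 at 37 °C, against 188 and 195 CPM in fust1 at 22 °C. In Col-0 it had 5026 and 4758 CPM at 37 °C, against 134 and 109 CPM at 22 °C. On the TMM scale both heated fust1 libraries lay below both heated Col-0 libraries, and as shares of the library these overlapped. Both unheated fust1 libraries lay above both unheated Col-0 ones on either scale. The log2 change of HSP90.3 RNA was 4.21 ± 0.28 in fust1 (edgeR adjusted p = 8.03e-07) and 5.33 ± 0.29 in Col-0 (edgeR adjusted p = 1.57e-07). HSP90.3 had 10932 and 10109.8 CPM of footprints in fust1 at 37 °C, against 327 and 341 CPM in fust1 at 22 °C. In Col-0 it had 15028 and 12611 CPM at 37 °C, against 240.0 and 267 CPM at 22 °C. On the TMM scale the footprints had the same order of groups as the RNA. The log2 change of HSP90.3 footprints was 4.98 ± 0.18 in fust1 (edgeR adjusted p = 1.97e-19) and 5.77 ± 0.19 in Col-0 (edgeR adjusted p = 1.4e-20).

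HSP90.4, the last cytosolic form, had few counts and the smallest changes of the cytosolic group. HSP90.4 had 38.5 and 26.3 CPM of RNA in fust1 at 37 °C, against 17.2 and 19.5 CPM in fust1 at 22 °C. In Col-0 it had 39.1 and 29.0 CPM at 37 °C, against 20.6 and 14.8 CPM at 22 °C. The heated libraries lay above the unheated ones on this scale, but as a share of the library they overlapped, at 0.00305 and 0.00191% in heated and 0.00233 and 0.00297% in unheated fust1. The log2 change was 0.82 ± 0.26 in fust1 (edgeR adjusted p = 0.0273) and 0.95 ± 0.26 in Col-0 (edgeR adjusted p = 0.0141), and with library totals as the scale it turned to -0.10 and -0.07. The RNA call of HSP90.4 ended without fust1 22 °C replicate 1 (0.73, edgeR adjusted p = 0.13), fust1 22 °C replicate 2 (0.91, adjusted p = 0.0693) or fust1 37 °C replicate 1 (0.52, adjusted p = 0.198). In Col-0 it ended without 22 °C replicate 2 (0.73, edgeR adjusted p = 0.137) or 37 °C replicate 1 (0.72, adjusted p = 0.0626). HSP90.4 had 97.5 and 99.4 CPM of footprints in fust1 at 37 °C, against 30.5 and 32.5 CPM in fust1 at 22 °C. In Col-0 it had 123 and 114 CPM at 37 °C, against 25.0 and 25.1 CPM at 22 °C. On the TMM scale these footprint groups did not overlap between temperatures. The log2 footprint change was 1.64 ± 0.14 in fust1 (edgeR adjusted p = 1.01e-10), or -0.03 with library totals. In Col-0 it was 2.25 ± 0.15 (edgeR adjusted p = 2.93e-13), or 0.45 with library totals.

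Of the organelle forms, HSP90.5 of the plastid had higher RNA in every heated library and smaller changes in footprints. HSP90.5 had 1006 and 1016 CPM of RNA in fust1 at 37 °C, against 182 and 193 CPM in fust1 at 22 °C. In Col-0 it had 1023 and 912 CPM at 37 °C, against 162 and 141 CPM at 22 °C. The temperatures did not overlap, and the genotypes overlapped when heated. RNA changed by 2.43 ± 0.21 in fust1 (edgeR adjusted p = 8.66e-06) and 2.68 ± 0.22 in Col-0 (edgeR adjusted p = 3.92e-06). HSP90.5 had 436 and 518 CPM of footprints in fust1 at 37 °C, against 188 and 172 CPM in fust1 at 22 °C. In Col-0 it had 197 and 243 CPM at 37 °C, against 149 and 157 CPM at 22 °C. The heated fust1 libraries had more than both heated Col-0 libraries. On the TMM scale the footprint change was 1.41 ± 0.14 in fust1 (edgeR adjusted p = 1.75e-09) and 0.52 ± 0.14 in Col-0 (edgeR adjusted p = 0.00254), and with library totals it turned to -0.26 and -1.27. Its share of all footprints was 0.0245 and 0.0318% in heated fust1, against 0.0340 and 0.0337% in unheated fust1, and 0.00963 and 0.0129% in heated Col-0, against 0.0262 and 0.0281% in unheated Col-0. Without Col-0 37 °C Ribo-seq replicate 2 the Col-0 change was 0.36 and no longer called (edgeR adjusted p = 0.0774).

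HSP90.6 of the mitochondrion had the widest gap between its assays. HSP90.6 had 814 and 981 CPM of RNA in fust1 at 37 °C, against 53.1 and 61.2 CPM in fust1 at 22 °C. In Col-0 it had 878 and 937 CPM at 37 °C, against 48.0 and 39.0 CPM at 22 °C. The heated genotypes overlapped, and both lay far above their unheated libraries. The RNA of HSP90.6 changed by 3.97 ± 0.24 in fust1 (edgeR adjusted p = 3.97e-07) and 4.38 ± 0.25 in Col-0 (edgeR adjusted p = 1.84e-07). HSP90.6 had 96.8 and 100.1 CPM of footprints in fust1 at 37 °C, against 39.6 and 34.6 CPM in fust1 at 22 °C. In Col-0 it had 57.7 and 59.3 CPM at 37 °C, against 29.8 and 26.7 CPM at 22 °C. The heated fust1 libraries were both above the heated Col-0 ones. On the TMM scale footprints changed by 1.41 ± 0.15 in fust1 (edgeR adjusted p = 3.75e-09) and by 1.05 ± 0.16 in Col-0 (edgeR adjusted p = 1.83e-06), and with library totals by -0.26 and -0.74.

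On the TMM scale HSP90.7 of the ER changed by similar amounts in both assays. HSP90.7 had 672 and 444 CPM of RNA in fust1 at 37 °C, against 235 and 207 CPM in fust1 at 22 °C. In Col-0 it had 599 and 301 CPM at 37 °C, against 199 and 167 CPM at 22 °C. For this gene Col-0 at 37 °C had the widest spread of the RNA groups, its second library being close to the level of the unheated ones. The log2 change was 1.34 ± 0.32 in fust1 (edgeR adjusted p = 0.00802) and 1.30 ± 0.32 in Col-0 (edgeR adjusted p = 0.00932), and 0.43 and 0.30 with library totals, where neither was called. Leaving out 1 library gave 1.01 to 1.61 in fust1 and 0.72 to 1.71 in Col-0, with the call kept in 6 and 5 of 8 cases. The lowest values were 1.01 without fust1 37 °C RNA-seq replicate 1 (adjusted p = 0.0669) and 0.72 without Col-0 37 °C RNA-seq replicate 1 (adjusted p = 0.0547). The call of HSP90.7 also ended without fust1 22 °C replicate 2 (adjusted p = 0.0502), Col-0 22 °C replicate 1 (adjusted p = 0.0542) or Col-0 22 °C replicate 2 (adjusted p = 0.0893). HSP90.7 had 1187 and 1374 CPM of footprints in fust1 at 37 °C, against 509 and 518 CPM in fust1 at 22 °C. In Col-0 it had 1189 and 1174 CPM at 37 °C, against 384 and 417 CPM at 22 °C. The temperatures did not overlap on this scale, and the heated genotypes did. On the TMM scale its footprints changed by 1.32 ± 0.14 in fust1 (edgeR adjusted p = 3.67e-09) and 1.56 ± 0.14 in Col-0 (edgeR adjusted p = 1.34e-10), and with library totals by -0.36 and -0.24.

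The question of the heat comparison was which genes gain or lose RNA and footprints at 37 °C. edgeR's quasi-likelihood test, adjusted by Benjamini-Hochberg over all genes tested, called 7 of 7 family members higher in RNA in fust1, where 18.8% of all 19340 genes tested were called higher. It called 7 of 7 in Col-0, against 19.2% of all genes. With library totals it called 5 of 7 higher in RNA in each genotype, all but HSP90.4 and HSP90.7, against 4.63% of all genes in fust1 and 4.99% in Col-0. In footprints it called 7 of 7 higher in both genotypes on the TMM scale, against 27.6% of 18445 genes in fust1 and 27.8% in Col-0. With library totals the footprint count in fust1 was 3 higher (HSP90.1, HSP90.2 and HSP90.3) and 1 lower (HSP90.7), and in Col-0 4 higher (these 3 and HSP90.4) and 2 lower (HSP90.5 and HSP90.6). On that scale 3.69% of all genes were called higher and 82.0% lower in fust1, and 3.76% and 79.1% in Col-0. The median RNA change of the 7 was 3.97 in fust1 and 4.38 in Col-0, and the median footprint change was 1.64 in fust1 and 2.25 in Col-0, or -0.033 and 0.45 with library totals. On the TMM scale both heated libraries lay above both unheated ones for 7 of 7 members, which was so in RNA for 33.0% of all genes in fust1 and 32.7% in Col-0, and in footprints for 36.3% and 35.3%. As shares of the library, 3 of 7 in fust1 and 3 of 7 in Col-0 had fewer footprints in both heated libraries than in both unheated ones, and these were the 3 organelle forms. So had 88.4% of all genes in fust1 and 86.9% in Col-0, so the organelle forms shared the direction of most genes there. They did not share the size of the fall. With library totals the median change of all genes was -1.80 in fust1 and -2.0 in Col-0, a larger fall than that given above for each organelle form.

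**Figure D2:**
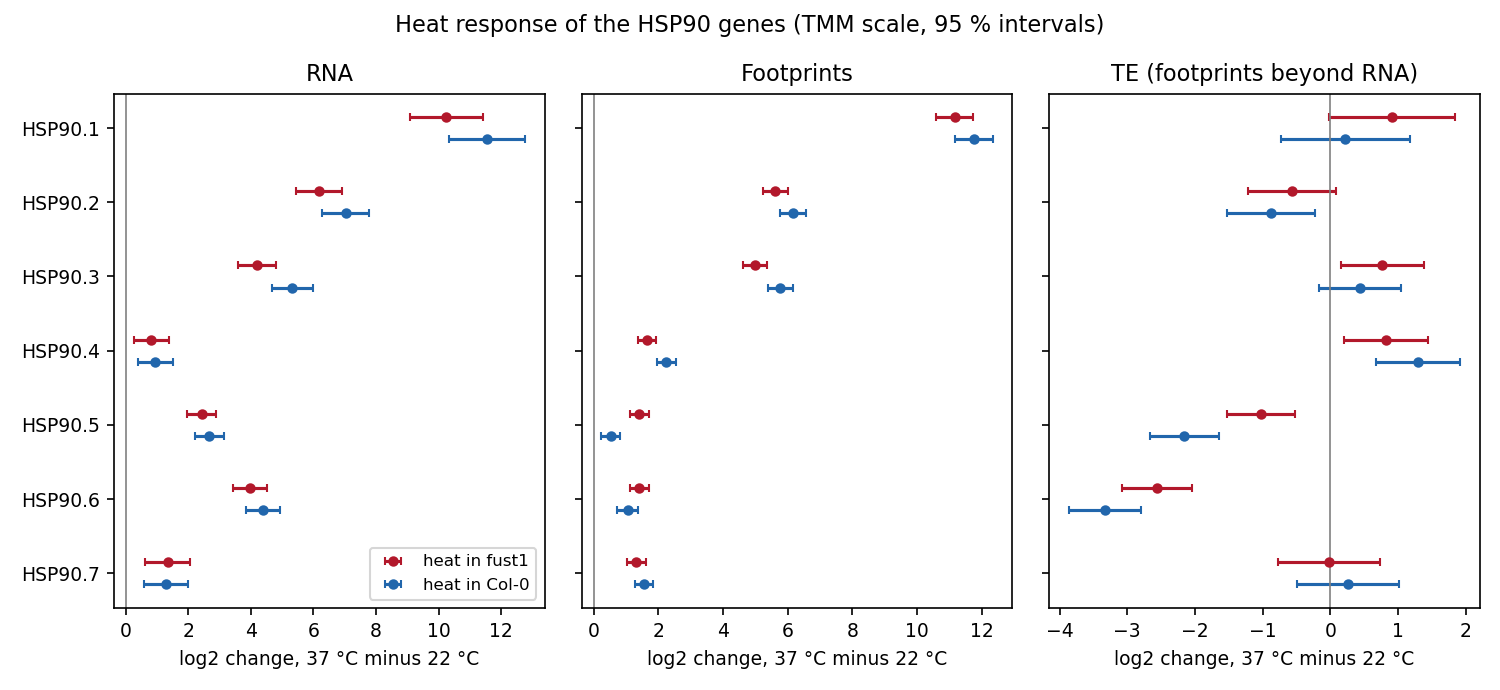
Log2 change with heat (37 °C minus 22 °C, TMM scale) of each HSP90 gene in fust1 (red) and Col-0 (blue), for RNA, footprints and TE (translation efficiency, footprints relative to RNA); bars are 95% intervals from the edgeR fit over all genes. All RNA and footprint intervals lie above 0 on this scale. With library totals footprint values of HSP90.4 (fust1 only) and of HSP90.5 to HSP90.7 turn below 0, as do the RNA values of HSP90.4. TE intervals lie below 0 for HSP90.5 and HSP90.6 in both genotypes and for HSP90.2 in Col-0. They lie above 0 for HSP90.4 in both genotypes and for HSP90.3 in fust1, the last not called after adjustment.

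The make-up of the family, in parts of its counts, does not depend on how libraries are scaled. With heat the part of the organelle forms fell in both assays. The part of HSP90.2 to HSP90.4 together was 51.3% of the RNA in heated and 47.2% in unheated fust1, and 52.9% and 42.6% in Col-0. In footprints it fell to 22.7% from 46.3% in fust1, and to 22.8% from 44.3% in Col-0. HSP90.1 was the only member whose part of the footprints rose. These parts are not adjusted for gene length. The 3 organelle genes held 6.56 ± 0.718% of the family's RNA counts in fust1 at 37 °C, against 51.3 ± 1.35% in fust1 at 22 °C (mean ± SD, n = 2). In Col-0 they held 5.11 ± 0.509% at 37 °C, against 56.5 ± 2.12% at 22 °C. Of the family's footprints they held 1.69 ± 0.266% in fust1 at 37 °C, against 51.2 ± 0.863% at 22 °C. The Col-0 footprint values were 1.18 ± 0.175% at 37 °C and 53.2 ± 1.06% at 22 °C. HSP90.1 made up 42.6 and 41.6% of the family's RNA in the heated fust1 libraries, against 1.93 and 0.969% in the unheated ones. It made up 76.4 and 74.8% of the family's footprints there, against 2.40 and 2.69% in unheated fust1. In Col-0 its part of the RNA was 41.9 and 42.1% at 37 °C and 1.14 and 0.744% at 22 °C, and its part of the footprints was 76.3 and 75.7% at 37 °C and 2.99 and 2.05% at 22 °C. So HSP90.1 held a larger part of the family's footprints than of its RNA when heated, in both genotypes. HSP90.2 stood the other way, with 41.3 and 42.6% of the RNA and 12.5 and 13.7% of the footprints in heated fust1. HSP90.7 held 1.04 and 1.29% of the footprints in heated fust1, against 35.8 and 36.2% in unheated fust1.

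**Figure D3:**
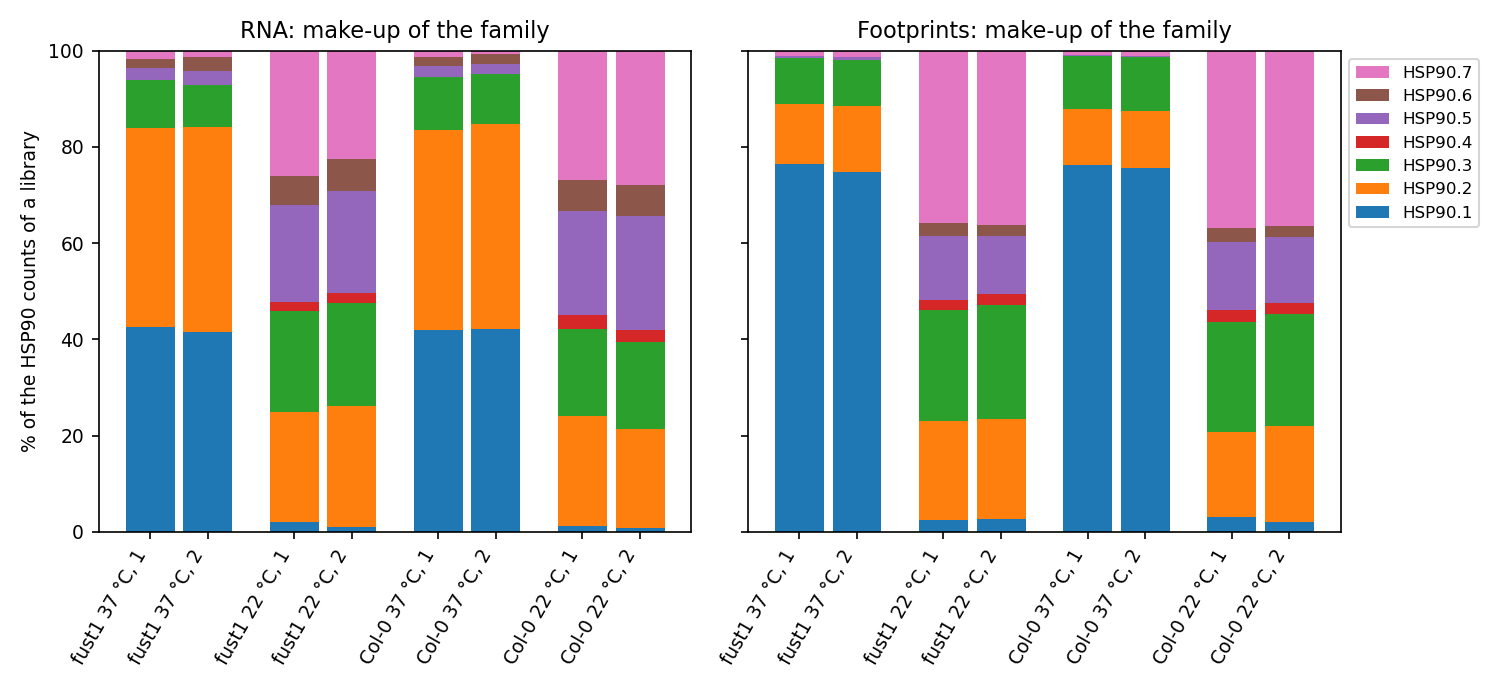
Share of each HSP90 gene in the HSP90 counts of each library (vertical axis, per cent), for RNA (left) and footprints (right); each bar is 1 library, labelled by genotype, temperature and replicate. HSP90.1 fills 41.6 to 42.6% of the family's RNA and 74.8 to 76.4% of its footprints at 37 °C, and the organelle forms HSP90.5, HSP90.6 and HSP90.7 fill 51.2 to 56.5% on average of the unheated bars.

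Translation efficiency (TE) asked which genes gained or lost footprints beyond their poly(A) RNA. It was the interaction of assay and temperature over all 16 libraries, with separate scaling of the 2 assays, and it says how a gene stands against the typical gene, not how many ribosomes an RNA copy carried. HSP90.6 fell in TE by 2.57 ± 0.25 on the log2 scale in fust1 (edgeR adjusted p = 1.63e-06), and its Col-0 change was -3.33 ± 0.25 (edgeR adjusted p = 4.45e-08). HSP90.5 fell by 1.02 ± 0.24 in fust1 (edgeR adjusted p = 0.0042), and its Col-0 change was -2.16 ± 0.24 (edgeR adjusted p = 3.33e-06). Both stayed called without any 1 of the 16 libraries. HSP90.4 rose by 0.83 ± 0.29 in fust1 (edgeR adjusted p = 0.0436) and by 1.30 ± 0.30 in Col-0 (edgeR adjusted p = 0.00242); with library totals these were 0.07 and 0.52 and not called, and the fust1 call was kept in 5 of 16 cases when 1 library was left out (0.58 to 1.13, lowest without fust1 37 °C RNA-seq replicate 2). The split of reads between HSP90.4 and its near copies HSP90.2 and HSP90.3 is uncertain, so the TE of each is too. In heated fust1 HSP90.4 had 98.4 CPM of footprints, beside 14446 CPM for HSP90.2 and 10521 CPM for HSP90.3. With the 3 copies summed TE was -0.26 ± 0.30 in fust1 and -0.51 ± 0.30 in Col-0, neither called. HSP90.2 had -0.57 ± 0.31 in fust1 (edgeR adjusted p = 0.181), not called. It fell in Col-0 (-0.88 ± 0.31, edgeR adjusted p = 0.0323), a call that ended without Col-0 22 °C RNA-seq replicate 2 (-0.66), Col-0 37 °C RNA-seq replicate 2 (-0.87), Col-0 22 °C Ribo-seq replicate 2 (-0.71) or Col-0 37 °C Ribo-seq replicate 2 (-0.76). HSP90.1 had 0.91 ± 0.44 in fust1 (edgeR adjusted p = 0.133) and 0.22 ± 0.45 in Col-0 (edgeR adjusted p = 0.733), neither called; the Col-0 value turned to -0.55 with library totals. Without fust1 22 °C RNA-seq replicate 1 the fust1 value was 0.35, and without fust1 22 °C RNA-seq replicate 2 it was 1.32 and called (edgeR adjusted p = 0.0261). HSP90.3 had 0.77 ± 0.29 (edgeR adjusted p = 0.0561) and 0.44 ± 0.29 (edgeR adjusted p = 0.251) in the same order, also not called; the Col-0 value turned to -0.34 with library totals, and leaving out 1 library gave 0.56 to 1.01 in fust1, called in 3 of 16 cases. The intervals of HSP90.7 were -0.78 to 0.74 in fust1 and -0.50 to 1.02 in Col-0. In all, 1 member was called higher and 2 lower in fust1, where 12.5% and 15.7% of 17816 genes were. In Col-0 1 was called higher and 3 lower, against 15.5% and 21.5% of all genes.

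The ratio of mean footprint CPM to mean RNA CPM was ranked among genes with at least 10 CPM of RNA, as a description without a test. HSP90.6 stood at percentile 12.3 in fust1 at 37 °C, against 56.3 in fust1 at 22 °C, and at 11.7 in Col-0 at 37 °C, against 53.6 in Col-0 at 22 °C. HSP90.5 stood at 49.2 in heated and 75.4 in unheated fust1, and at 32.9 in heated and 75.6 in unheated Col-0. HSP90.1 stood at 98.5 in heated and 98.4 in unheated fust1, and at 97.9 in heated Col-0, its RNA being under the 10 CPM in unheated Col-0. HSP90.2 stood at 70.2 in heated and 87.9 in unheated fust1, and at 64.5 in heated and 87.5 in unheated Col-0. HSP90.3, HSP90.4 and HSP90.7 stood at 87.6 or above in every group. The ranks of HSP90.2, HSP90.3 and HSP90.4 carry the uncertain split of reads between these near copies.

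The genotype comparison at 37 °C asked how heated fust1 differs from heated Col-0. In footprints the plastid and the mitochondrial form were higher in fust1. HSP90.5 had 436 and 518 CPM in fust1, against 197 and 243 CPM in Col-0, a 2.17-fold difference (1.12 ± 0.14 on the log2 scale, edgeR adjusted p = 1.12e-05). HSP90.6 had 96.8 and 100.1 CPM in fust1, against 57.7 and 59.3 CPM in Col-0, or 1.68-fold (0.75 ± 0.16, edgeR adjusted p = 0.00234). Both held with library totals (1.32 and 0.96) and without any 1 of the 8 Ribo-seq libraries, where the values ran from 0.98 to 1.28 and from 0.73 to 0.77. These 2 of 7 members stood against 6.11% of all genes called higher. The others were not called by edgeR: HSP90.3 had -0.39 ± 0.15 (edgeR adjusted p = 0.0964), HSP90.4 -0.27 ± 0.14, HSP90.1 -0.19 ± 0.18, HSP90.2 -0.02 ± 0.16 and HSP90.7 0.12 ± 0.14; the values of HSP90.1 and HSP90.2 turn positive with library totals (0.014 and 0.19). DESeq2 called HSP90.3 (-0.43, adjusted p = 0.0256). In RNA at 37 °C 0 of 7 were called by edgeR, against 0.0517% of all genes. DESeq2 also called 0 of 7, where it called 318 of all genes. No member had an unadjusted p under 0.05 there. The RNA intervals of HSP90.1, HSP90.2 and HSP90.3 were -1.04 to 0.52, -0.85 to 0.31 and -1.0 to 0.07, and the estimates of the other 4 lay between -0.08 and 0.31. In TE HSP90.5 had 1.05 ± 0.24 (edgeR adjusted p = 0.0418, where 1.14% of all genes were called higher), which was called in 5 of 16 cases with 1 library left out (adjusted p up to 0.181, without Col-0 37 °C Ribo-seq replicate 1, where it was 0.91). The TE call of HSP90.5 also ended with RLE scaling, library totals, a replicate term in the fit or only the groups compared. HSP90.6 had a TE difference of 0.77 ± 0.25 (edgeR adjusted p = 0.128).

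**Figure D4:**
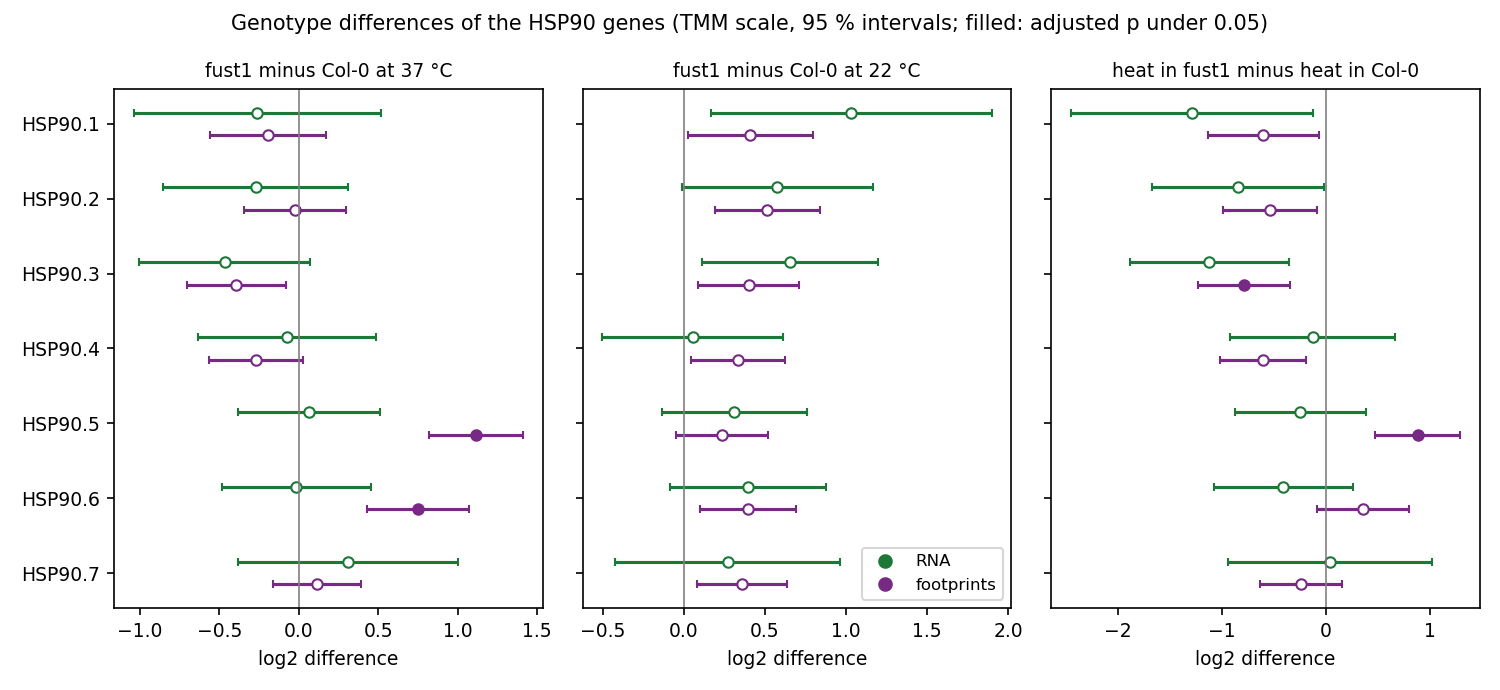
Log2 differences of the HSP90 genes between genotypes at 37 °C (left), at 22 °C (middle) and in the heat response (right, fust1 minus Col-0), for RNA (green) and footprints (purple), on the TMM scale with 95% intervals; filled points have an edgeR adjusted p under 0.05. Filled points are the footprints of HSP90.5 and HSP90.6 at 37 °C and of HSP90.3 and HSP90.5 in the heat response.

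At 22 °C the comparison of fust1 with Col-0 gave values above 0 for all 7 members in both assays, with 0 of 7 called by edgeR. In footprints all 7 members had a higher value in both fust1 libraries than in both Col-0 libraries, as 25.1% of all genes had, with differences from 0.23 ± 0.14 for HSP90.5 to 0.51 ± 0.16 for HSP90.2 on the log2 scale. edgeR called 0 of 7, against 4.38% of all genes, and the smallest adjusted p was 0.0596, for HSP90.2. At an unadjusted p under 0.05 there were 6, and the share of all genes at that threshold was not taken here. DESeq2 called HSP90.2 (0.49, adjusted p = 0.0246). In RNA 6 of 7 members had both fust1 libraries above both Col-0 libraries, all but HSP90.4, and so had 17.3% of all genes. edgeR again called 0 of 7, against 0.0569% of all genes, and DESeq2 called 0 of 7, where it called 87 of all genes. HSP90.1 and HSP90.3 had an unadjusted p under 0.05 in RNA, again without a share of all genes to set beside it. HSP90.1 RNA had 17.4 and 8.87 CPM in fust1, against 8.51 and 4.45 CPM in Col-0 (1.03 ± 0.40, edgeR adjusted p = 1). Leaving out 1 library gave 0.47 to 1.56, lowest without fust1 22 °C RNA-seq replicate 1 and highest without Col-0 22 °C RNA-seq replicate 1. Its libraries within a genotype differed about as much as the genotypes did. In TE at 22 °C edgeR called 0 of 7, against 0.00561% of all genes. DESeq2 called 0 of 7, where it called 17 of all genes. No member had an unadjusted p under 0.05 there.

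The heat-by-genotype comparison asked whether heat acted to a different extent in fust1. In footprints HSP90.5 rose more in fust1 (1.41) than in Col-0 (0.52) on the TMM scale, or fell less with library totals (-0.26 and -1.27). The difference was 0.88 ± 0.20 (edgeR adjusted p = 0.00568), and 1.01 with library totals. It was 0.74 and not called (adjusted p = 0.0622) without Col-0 37 °C Ribo-seq replicate 1. HSP90.3 rose less in fust1 (4.98) than in Col-0 (5.77), a difference of -0.79 ± 0.22 (edgeR adjusted p = 0.0199). That call ended without Col-0 22 °C Ribo-seq replicate 1 (-0.72, adjusted p = 0.0988), without Col-0 37 °C Ribo-seq replicate 1 (-0.66, adjusted p = 0.154) and without fust1 37 °C Ribo-seq replicate 2 (-0.74, adjusted p = 0.0632). Of all genes 5.49% were called higher in this comparison, as HSP90.5 was, and 3.21% lower, as HSP90.3 was. HSP90.1, HSP90.2 and HSP90.4 had -0.60 ± 0.26, -0.54 ± 0.22 and -0.60 ± 0.20, with adjusted p = 0.152, 0.133 and 0.0606. DESeq2 also called HSP90.4 (-0.62, adjusted p = 0.0262). HSP90.6 had 0.36 ± 0.21 (edgeR adjusted p = 0.326) and HSP90.7 -0.24 ± 0.19 (edgeR adjusted p = 0.477). In RNA edgeR called 0 of 7, against 0.0310% of all genes. At an unadjusted p under 0.05 there were 3, a threshold at which the share of all genes was not taken. These were HSP90.1 (-1.29 ± 0.53, edgeR adjusted p = 0.498), HSP90.2 (-0.85 ± 0.38, edgeR adjusted p = 0.531) and HSP90.3 (-1.12 ± 0.35, edgeR adjusted p = 0.357), and DESeq2 called HSP90.3 (-1.12, adjusted p = 0.0284). Leaving out 1 library gave -1.82 to -0.73 for HSP90.1, from without Col-0 22 °C RNA-seq replicate 1 to without fust1 22 °C RNA-seq replicate 1. In TE edgeR called 0 of 7, against 1.09% of all genes. At an unadjusted p under 0.05 there were 2, again without a share of all genes. HSP90.5 had 1.13 ± 0.34 (edgeR adjusted p = 0.101; DESeq2 1.11, adjusted p = 0.00872), and HSP90.6 had 0.77 ± 0.35 (edgeR adjusted p = 0.269). The comparisons share libraries, since heated fust1 enters heat, genotype and heat by genotype alike.

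HSP90.2, HSP90.3 and HSP90.4 are near-identical copies that lie close together on chromosome 5. The gene order there is HSP90.4, HSP90.3, AT5G56020, HSP90.2, by the locus order of the RefSeq name table. How reads that match more than 1 copy were counted is not given in the sources used here, so the split between these 3 is uncertain. Within a library, the count of HSP90.2 over that of HSP90.3 was 4.17 and 4.90 for RNA in fust1 at 37 °C, against 1.10 and 1.18 in fust1 at 22 °C. In Col-0 it was 3.78 and 4.05 at 37 °C, against 1.27 and 1.13 at 22 °C. For footprints it was 1.31 and 1.44 in fust1 at 37 °C, against 0.896 and 0.872 at 22 °C, and 1.06 and 1.07 in Col-0 at 37 °C, against 0.767 and 0.859 at 22 °C. Thus the ratio was higher in every heated library than in every unheated one of its genotype and assay, by more in RNA than in footprints. Both fust1 libraries lay above both Col-0 libraries in heated RNA and in heated and unheated footprints. In unheated RNA the genotypes overlapped. With the 3 copies summed, RNA rose with heat by 5.50 ± 0.32 in fust1 and 6.39 ± 0.34 in Col-0, and footprints by 5.25 ± 0.19 and 5.88 ± 0.20. The summed heat-by-genotype difference in footprints was -0.64 ± 0.22 (edgeR adjusted p = 0.0759), and summed TE was not called in fust1 (-0.26 ± 0.30) or Col-0 (-0.51 ± 0.30).

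**Figure D5:**
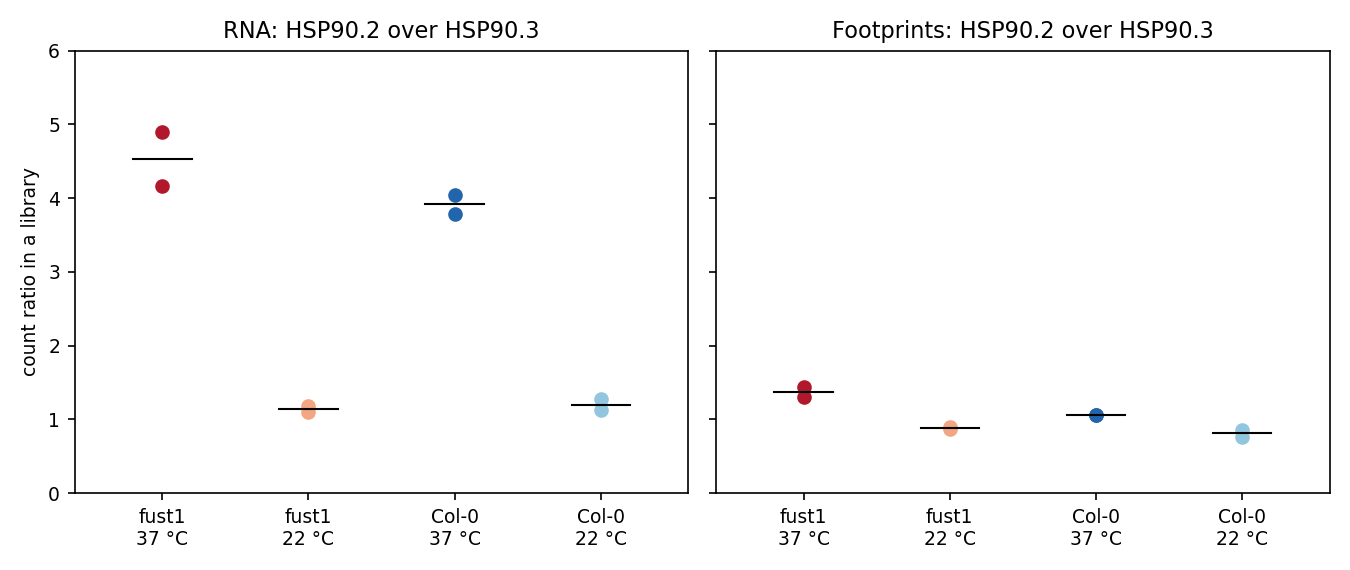
Count of HSP90.2 over the count of HSP90.3 in each library, for RNA (left) and footprints (right); points are libraries and black lines are means of 2. The RNA ratio lies between 3.78 and 4.90 at 37 °C and between 1.10 and 1.27 at 22 °C, and the footprint ratio between 1.06 and 1.44 at 37 °C and between 0.767 and 0.896 at 22 °C.

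Likeness of pattern was measured as Pearson's r of log2 CPM over the 16 libraries, after the mean of each assay was removed, among 3787 genes with at least 32 CPM in the highest group of each assay. These libraries share the heat treatment and the depth of their assay, so the values are a description with no test. HSP90.1 was most like HSP70, the heat-inducible cytosolic chaperone (r = 0.9998), and ATERDJ3A. HSP90.2 was most like PDX1.2, a protein related to vitamin B6 synthesis (r = 0.999), and AT1G30070. HSP90.3 was most like AT3G09440 (r = 0.999) and BI1, an inhibitor of cell death in the ER membrane. HSP90.4 was most like PBB1, a subunit of the proteasome (r = 0.993), and AGD2. HSP90.5 was most like cpHsc70-2, an HSP70 of the plastid (r = 0.989), and J3, a DnaJ partner of HSP70. HSP90.6 was most like AT1G35660 (r = 0.990) and then cpHsc70-2. HSP90.7 was most like P58IPK (r = 0.981) and PDIL2-3, both proteins of the ER folding machinery. Within the family, HSP90.5 and HSP90.6 were each other's nearest members (r = 0.981), and HSP90.1 and HSP90.3 were likewise (r = 0.997).

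The co-chaperones that steer HSP90, a list of 14 genes, were called higher with heat in most cases on the TMM scale. With library totals 7 were called higher and 1 lower in RNA in fust1, and 7 and 4 in Col-0. On that scale 4.63% of all genes were called higher and 51.3% lower in RNA in fust1, and 4.99% and 57.8% in Col-0. In RNA 10 of 14 were called higher and 0 lower in fust1 on the TMM scale, and 8 and 0 in Col-0, where 18.8% and 19.2% of all genes were called higher in fust1 and in Col-0. In footprints 10 of 14 were called higher and 0 lower in both genotypes, against 27.6% and 27.8% of all genes called higher. With library totals the footprint counts were 7 higher and 7 lower in fust1, and 6 and 7 in Col-0, where 3.69% and 3.76% of all genes were called higher and 82.0% and 79.1% lower. The median RNA change of the list was 2.65 in fust1 and 2.03 in Col-0, where that of all genes was -0.12 and -0.10. HOP3, which links HSP70 to HSP90, had RNA of 8039 and 8930.0 CPM in fust1 at 37 °C, against 4.40 and 4.89 CPM at 22 °C. Its RNA rose by 10.83 ± 0.38 in fust1 and 11.27 ± 0.39 in Col-0, and its footprints by 9.79 ± 0.21 and 9.36 ± 0.21. ROF2, a heat-induced immunophilin of the FKBP type, rose in RNA by 10.16 ± 0.44 in fust1 and 11.74 ± 0.47 in Col-0, and in footprints by 10.72 ± 0.24 and 11.07 ± 0.24. ROF1, its relative, rose in RNA by 6.01 ± 0.28 and 6.79 ± 0.29 and in footprints by 6.30 ± 0.18 and 6.68 ± 0.18. At 37 °C 2 co-chaperones had more footprints in fust1 than in Col-0, SGT1A (0.60 ± 0.14, edgeR adjusted p = 0.00491) and AT3G12050 (0.54 ± 0.13, edgeR adjusted p = 0.00821), where 6.11% of all genes had more. With library totals 3 had more, these 2 and HOP3 (0.62, edgeR adjusted p = 0.00499), where 9.97% of all genes had more. On both scales 1 co-chaperone had fewer.

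That one was SQN, the cyclophilin 40 of Arabidopsis, a co-chaperone of HSP90 needed for AGO1 function, which was singled out after its values were seen. Its RNA had 3 and 2 counts in the fust1 libraries at 37 °C, against 511 and 387 counts in Col-0. At 22 °C it had 0 and 0 counts in fust1, against 80 and 100 in Col-0. Its footprints had 3 and 9 counts in fust1 at 37 °C, against 31 and 72 in Col-0. At 22 °C they had 0 and 1 counts in fust1, against 176 and 138 in Col-0. The gene thus had few or no counts in fust1 in both assays and at both temperatures (edgeR adjusted p = 1.62e-05 for RNA and 3.77e-06 for footprints at 37 °C), a comparison in which 4.61% of all genes had fewer footprints in fust1. It is 1 of the 10 co-chaperones called higher with heat in fust1, on these few counts. All genotype comparisons here carry this difference in SQN between fust1 and Col-0, and its part in them was not tested.

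Of 16 clients and factors that depend on HSP90, 4 were called higher and 6 lower in RNA with heat in fust1, and 5 and 3 in Col-0. Of all genes 18.8% were called higher and 17.9% lower in fust1, and 19.2% and 18.2% in Col-0. With library totals the RNA counts were 1 higher and 10 lower in fust1, and 1 and 9 in Col-0. On that scale 4.63% of all genes were called higher and 51.3% lower in fust1, and 4.99% and 57.8% in Col-0. In footprints 15 were tested, with 2 called higher and 7 lower in fust1, and 4 and 9 in Col-0; with library totals these were 1 and 13, and 1 and 12. Of all genes 27.6% were called higher and 31.2% lower in footprints in fust1, and 27.8% and 31.8% in Col-0. With library totals 3.69% were called higher and 82.0% lower in fust1, and 3.76% and 79.1% in Col-0. So the count of clients called lower on that scale is near that of genes at large. HSFA2, the heat shock factor that prolongs the response, rose in RNA by 10.63 ± 0.38 in fust1 and 13.75 ± 0.44 in Col-0, and in footprints by 11.97 ± 0.40 and 12.31 ± 0.42. Its RNA at 22 °C was 6.07 and 4.82 CPM in fust1, against 0.537 and 0.889 CPM in Col-0 (edgeR adjusted p = 0.0232). Its footprints at 22 °C were 0.92 ± 0.51 CPM in fust1 and 0.72 ± 0.73 CPM in Col-0 (mean ± SD, n = 2), a difference that was not called. SNC1, a resistance protein from a cluster of similar genes whose reads may be shared, had 1 and 2 footprint counts in fust1 at 37 °C, against 439 and 376 at 22 °C. In Col-0 it had 0 and 5 at 37 °C, against 455 and 362 at 22 °C (edgeR adjusted p = 3.07e-11 in fust1 and 2.69e-09 in Col-0). AGO1, the main slicer of the small RNA pathways, had 332 and 377 CPM of footprints in fust1 at 37 °C, against 70.8 and 59.0 CPM in Col-0. At 22 °C it had 369 and 356 CPM in fust1, against 139 and 153 CPM in Col-0. The genotype difference was 2.45 ± 0.15 at 37 °C (edgeR adjusted p = 2.64e-11) and 1.32 ± 0.14 at 22 °C (edgeR adjusted p = 1.14e-06). In AGO1 RNA it was not called on either scale, and with library totals it was 1.05 at 37 °C and 1.21 at 22 °C (edgeR adjusted p = 0.148 and 0.0929). With heat AGO1 footprints had -0.03 ± 0.13 in fust1 and fell in Col-0 (-1.17 ± 0.15) on the TMM scale, while with library totals they fell in both (-1.70 in fust1 and -2.97 in Col-0). On the TMM scale the change in fust1 differed from that in Col-0 by 1.14 ± 0.20 (edgeR adjusted p = 0.000604). At 37 °C 2 of the 15 clients were called higher in fust1 footprints and 2 lower, against 6.11% and 4.61% of all genes.

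Of 12 partners of the organelle forms, 5 were called higher and 2 lower in RNA with heat in each genotype, and with library totals 5 and 4 in fust1, and 5 and 6 in Col-0. Of all genes 18.8% were called higher and 17.9% lower in RNA in fust1 on the TMM scale, and 19.2% and 18.2% in Col-0. With library totals these RNA shares were 4.63% and 51.3% in fust1, and 4.99% and 57.8% in Col-0. In footprints 5 were called higher and 5 lower in fust1, and 4 and 5 in Col-0, and with library totals 3 and 9, and 2 and 8. In footprints 27.6% of all genes were called higher and 31.2% lower in fust1 on the TMM scale, and 3.69% and 82.0% with library totals. The Col-0 footprint shares were 27.8% and 31.8% on the TMM scale, and 3.76% and 79.1% with library totals. MTHSC70-2, an HSP70 of the mitochondrion, rose in RNA by 7.05 ± 0.38 in fust1 and 7.51 ± 0.39 in Col-0. Its footprints rose by 7.24 ± 0.19 in fust1 and 7.87 ± 0.20 in Col-0, so unlike HSP90.6 its footprint and RNA changes were of similar size. BIP1, the HSP70 of the ER, rose in RNA by 3.34 ± 0.24 and 3.53 ± 0.24 and in footprints by 2.73 ± 0.14 and 2.89 ± 0.15, in fust1 and in Col-0. CLPC1, a chaperone of the plastid import machinery, had 106 and 101 CPM of footprints in fust1 at 37 °C, against 771 and 663 CPM at 22 °C. In Col-0 it had 49.3 and 44.7 CPM at 37 °C, against 1086 and 1049 CPM at 22 °C. The fall was -2.79 ± 0.15 in fust1 (edgeR adjusted p = 1.29e-15) and -4.51 ± 0.16 in Col-0 (edgeR adjusted p = 2.22e-19), with RNA not called in either on the TMM scale. With library totals its RNA was called lower in both, at -1.05 in fust1 and -0.98 in Col-0. At 37 °C 3 of the 12 partners had more footprints in fust1 than in Col-0 and 0 fewer, and with library totals 5 had more and 0 fewer, where 9.97% of all genes had more. The 3 were the plastid proteins CLPC1 (1.14 ± 0.16, edgeR adjusted p = 2.3e-05), CPHSC70-1 (0.87 ± 0.19, edgeR adjusted p = 0.0054) and CPHSC70-2 (0.72 ± 0.15, edgeR adjusted p = 0.00213), the last also the gene most like HSP90.5 in pattern. With library totals CLPC2 of the plastid (1.01) and BIP2 of the ER (0.56) were also called, and TIC110 of the plastid was not (0.27). Across all genes 6.11% were called higher in this comparison on the TMM scale.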

How the data were processed

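Per the labels and the values, the deposited tables hold raw read counts, whole numbers for each gene and library. The submitters' processing notes list fastp 0.19.7 with STAR 2.7.3a, then featureCounts 1.6.2, Bowtie 1.0.1 and the TAIR10 genome. Strand setting, multi-mapping and counted feature are not given in the sources used here. Per the labels' protocols, RNA was oligo-dT selected, and Ribo-seq used RNase I and rRNA depletion.

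Genes kept by filterByExpr (minimum count 10) were TMM-scaled and fitted with edgeR 4.0.16 (robust quasi-likelihood, R 4.3.3). Residual degrees of freedom were 4 within an assay and 8 in the joint TE fit. There were 15 comparisons, namely heat within each genotype, genotype within each temperature, and their interaction, in each of 3 measures. P-values were adjusted by Benjamini-Hochberg over all genes tested, with calls at 0.05. Errors after ± are standard errors (|log2 change| divided by the root of F) beside log2 values and SD elsewhere, and intervals are 95%. PCR copies were not collapsed by molecular tags and no spike-in was used, so values are relative.

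The members and lists were chosen with earlier results of these data known. Named genes were the 7 members, the 2 most alike genes of each (prior count 2) and up to 3 genes per list with the smallest adjusted p of heat. SQN, SGT1A, AT3G12050, CPHSC70-1, CLPC2, BIP2 and TIC110 were added after their values were seen. Alternatives were DESeq2 1.42.0, RLE scaling, library totals, no filter beyond 1 count, nuclear genes only, scaling without 37 heat genes, a replicate term, only the groups compared, 3 near copies summed and each library left out in turn. The code was tested on simulated data. Promoter motifs and the FUST1 gene were not analysed here. Symbols came from a RefSeq table of another assembly, which matched 27420 genes and was used for names and gene order only.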

Additional observations from a re-analysis of the deposited data

Results flagged for a closer look

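The footprint heat response of HSP90.5 differed between genotypes by the interaction test, the change in fust1 being larger by 0.88 ± 0.20 on the log2 scale (edgeR adjusted p = 0.00568). The change was 1.41 in fust1 and 0.52 in Col-0 on the TMM scale, and leaving out 1 Ribo-seq library gave 0.74 to 1.04. That of HSP90.3 differed by -0.79 ± 0.22 (edgeR adjusted p = 0.0199), with 4.98 in fust1 and 5.77 in Col-0, and leaving out 1 library gave -0.91 to -0.66. Heated Col-0 has the 2 smallest Ribo-seq libraries, of 6271023 and 6175906 counts, and their part in these differences was not tested.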

How the results depend on the processing

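Over the 1341 alternative values computed for the members named in the report, 587 that were not called and 664 that were called kept their direction and their side of the threshold, 53 lost a call, 22 gained one and 15 changed sign. Scaling to library totals gave 13 of these signs: footprints with heat in fust1 of HSP90.4 -0.033, HSP90.5 -0.26, HSP90.6 -0.26 and HSP90.7 -0.36; in Col-0 HSP90.5 -1.27, HSP90.6 -0.74 and HSP90.7 -0.24; RNA of HSP90.4 -0.10 in fust1 and -0.068 in Col-0; TE in Col-0 HSP90.1 -0.55 and HSP90.3 -0.34; footprints at 37 °C between genotypes HSP90.1 0.014 and HSP90.2 0.19. By its construction this scaling shifts all values of a comparison together. Of 28 pairs of heated and unheated means, 28 were higher when heated on the TMM scale and 19 as shares of the library.

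Left-out libraries gave -0.30 to 0.63 for the TE of HSP90.1 with heat in Col-0, where -0.30 came without Col-0 22 °C RNA-seq replicate 1. For HSP90.2 footprints at 37 °C between genotypes they gave -0.14 to 0.10, where 0.10 came without Col-0 37 °C Ribo-seq replicate 1.

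Counts of called members moved as follows, and the cause was not tested. Footprints at 22 °C between genotypes gave 0 as reported, 1 with DESeq2, no filter, nuclear genes only or the replicate block, 2 with library totals, 3 with only the groups compared, and 0 to 1 with a library left out. Over all genes that 22 °C comparison called 808 as reported, 787 with DESeq2 and 1192 with no filter. It called 889 with nuclear genes only, 773 with the replicate block, 637 with library totals and 1991 with only the groups compared. Footprints with heat in fust1 gave 7, and 4 with library totals, where 10843 and 15804 of all genes were called. RNA heat by genotype and TE heat by genotype gave 0, and 1 with DESeq2. Of all genes 6 and 195 were called there by edgeR, and 186 and 702 by DESeq2. DESeq2 also called HSP90.3 in footprints between genotypes at 37 °C and HSP90.4 in footprint heat by genotype, and edgeR called neither of these. Over all genes, TE between genotypes at 37 °C called 235 as reported, 177 with RLE scaling and 237 with library totals. It called 87 with the replicate block and 3 with only the groups compared. TE between genotypes at 37 °C gave 1, and 0 with RLE scaling, library totals, the replicate block or only the groups compared, and 0 to 1 with a library left out. Footprint heat by genotype gave 2, and 0 to 2 with a library left out. TE with heat gave 3 in fust1 (2 to 4 with a library left out) and 4 in Col-0 (3 to 5). RNA with heat gave 7 (5 to 7) in both genotypes, and footprints in Col-0 7 (6 to 7). A left-out library leaves a group of 1, assumed to vary like the others. Summing the near copies leaves fewer than 7 members, so no count was made, and heat by genotype already uses only the groups compared. Footprints of HSP90.6 in heated Col-0 rest on 177 and 195 counts.

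Same-numbered replicates deviated from their group means with correlations from -0.26 to 0.21 in RNA and from -0.066 to 0.057 in footprints. The RNA values between genotypes of the same temperature were 0.16 at 22 °C and 0.21 at 37 °C. These values do not settle whether the numbers pair the samples. The replicate block changed 2 of the calls of members, footprints of HSP90.2 at 22 °C (0.52, adjusted p = 0.032) and TE of HSP90.5 at 37 °C (1.05, adjusted p = 0.0662).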
